A study of Rattus norvegicus with 12 samples.

Results

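Hgf, Igf1, Pdgfa, Pdgfb, Pdgfc, Hbegf, Vegfa, Vegfb, Osm and Lif encode secreted growth factors and cytokines that act in liver repair and scarring. They were read by gene symbol from 32623 genes listed in the deposited files. All 10 had 1 row each, and all 10 passed the filter on low counts that left 13539 genes for testing. Every library carries the same cell label, rat hepatic stellate cells (HSC), the pericytes of the liver sinusoid, taken as primary cells by gradient centrifugation from livers made cirrhotic with inhaled carbon tetrachloride (CCl4). For 24 h they shared medium, across porous Transwell inserts, with 15000 viable amniotic epithelial cells of human origin (hAEC) or 15000 viable amniotic mesenchymal stromal cells of human origin (hAMSC), or received vehicle (Veh), and polyadenylated RNA was then sequenced. Each of the 3 groups had 4 libraries, numbered by the labels 3, 4, 11 and 12 for hAEC, 7, 8, 15 and 16 for hAMSC, and 17, 18, 19 and 20 for vehicle. The labels used here give no strain or age. Nor do they name the rat or culture behind a library, so a p-value reflects variation among libraries that could be technical. All groups share the cirrhotic source, and none holds cells from a healthy liver.

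These factors work between cells. Hepatocyte growth factor (Hgf) acts through the receptor Met as a mitogen and survival factor for hepatocytes, and insulin-like growth factor 1 (Igf1) acts through Igf1r. The platelet-derived growth factors (Pdgfa, Pdgfb, Pdgfc) act through Pdgfra and Pdgfrb and are known as mitogens for stellate cells, heparin-binding EGF-like growth factor (Hbegf) acts through Egfr and Erbb4, and Vegfa and Vegfb act through Flt1, with Vegfa also binding Kdr. Oncostatin M (Osm) and leukaemia inhibitory factor (Lif) are cytokines of the interleukin 6 family that signal through receptors sharing Il6st (gp130).

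The libraries fell into 2 sets that the labels do not name. The first principal component of the 2000 most variable genes, computed without the 10 factors, held 88.5% of the variance and parted hAEC 11 and 12, hAMSC 15 and 16 and vehicle 19 and 20 (called here the higher-numbered set) from hAEC 3 and 4, hAMSC 7 and 8 and vehicle 17 and 18 (the lower-numbered set). Each set held 2 libraries of every group, so treatments were compared with the set as a term in the model, and differences between the sets are described without a test because the sets were drawn from the same expression values. Total counts ran from 27382724 to 34922211 per library. The cell label did not match its markers: 13 genes of stellate cells and myofibroblasts had a median level of 1.52 CPM (counts scaled to library size), with Acta2 at a mean of 1.88 CPM and Lrat at 0.174 CPM. Of 15 macrophage markers 14 were in the files, and they summed to 52080.0 to 55000.0 CPM in the higher-numbered set and 28253 to 31170.0 CPM in the lower-numbered set. Gpnmb was the most abundant of them (mean 20255 CPM, 14007 to 26682 over the 12 libraries). Some markers varied widely, such as Lyz2 (984 to 9938 CPM) and Cd14 (167 to 1079 CPM). Others varied little, such as Cd68 (1525 to 1680 CPM) and Ptprc (683 to 937 CPM). The stellate list summed to 26.97 to 32.3 CPM in the higher-numbered set and 66.5 to 106 CPM in the lower-numbered set, with Reln its most abundant gene (mean 39.5 CPM, 6.71 to 92.2 over the 12 libraries). The 12 endothelial markers summed to 389 to 540.0 CPM and 641 to 775 CPM. Hepatocyte markers summed to 671 to 818 CPM and 519 to 650.4 CPM, nearly all of it Tf, and Alb did not exceed 8.08 CPM. Epithelial, lymphocyte, neutrophil and mesothelial lists each summed to at most 32.8 CPM in any library, and no marker in the files was at 0 in all libraries. In these bulk samples, fewer cells of a type and less RNA per cell cannot be told apart. The part of these marker differences in the results was not tested.

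Promoters are shown for 3 factors whose levels differed over 1 log2 unit between the library sets (Pdgfc, Hbegf and Hgf) and for Vegfa, chosen after the search because 1 of its 2 windows in the table carries several motif matches. Windows of 250 bases before the annotated start were taken from RefSeq on build GRCr8, a later build than the one named for the counts, and 8 of the 10 factors were in that table. They are written 5′ to 3′ on the gene's strand, with motif matches in capitals. Pdgfc lies at chr2:168614918-168615167 on the plus strand, within the annotated gene, Hbegf at chr18:28390221-28390470 on the minus strand, Hgf at chr4:19700468-19700717 on the minus strand and Vegfa at chr9:22452604-22452853 on the plus strand.
Pdgfc: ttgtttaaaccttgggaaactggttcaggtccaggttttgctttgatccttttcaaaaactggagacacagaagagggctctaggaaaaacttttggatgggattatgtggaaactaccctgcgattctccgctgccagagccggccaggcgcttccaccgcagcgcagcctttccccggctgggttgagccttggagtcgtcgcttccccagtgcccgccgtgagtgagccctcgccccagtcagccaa
Hbegf: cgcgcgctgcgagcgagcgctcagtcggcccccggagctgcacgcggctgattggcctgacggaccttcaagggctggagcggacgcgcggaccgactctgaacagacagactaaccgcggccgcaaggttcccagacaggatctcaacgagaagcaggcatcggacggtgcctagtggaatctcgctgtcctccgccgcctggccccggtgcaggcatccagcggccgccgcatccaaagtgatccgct
Hgf: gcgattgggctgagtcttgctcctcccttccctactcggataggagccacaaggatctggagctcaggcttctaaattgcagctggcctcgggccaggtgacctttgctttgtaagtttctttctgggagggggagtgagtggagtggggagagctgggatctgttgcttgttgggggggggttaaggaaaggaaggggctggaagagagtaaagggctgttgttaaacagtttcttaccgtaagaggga
Vegfa: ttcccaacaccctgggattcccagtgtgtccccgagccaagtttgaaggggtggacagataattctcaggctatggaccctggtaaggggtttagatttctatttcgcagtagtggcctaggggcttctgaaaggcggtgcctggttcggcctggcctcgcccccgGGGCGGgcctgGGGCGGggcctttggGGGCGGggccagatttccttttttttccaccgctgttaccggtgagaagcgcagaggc
The capitals in the Vegfa promoter mark the Sp1 letters GGGCGG or their reverse complement, which begin 84, 73 and 58 bases before the start. The other Vegfa window, at chr9:22460028-22460277 within the annotated gene, held 0 matches. Both strands were searched for 5 motifs. GGGCGG was in the windows of Pdgfa, Pdgfb, Vegfa and Vegfb, 4 of 8 factors, against 30.5% of 33469 RefSeq promoters of this length. A factor counted when any of its windows matched, and the share of all promoters is per window. The matching windows were 60.4% to 73.2% G and C, where the median of all promoters was 51.2%. The Hbegf window, at 67.6%, held no match. The part of base content in the matches was not tested. No window of the 8 factors held the AP-1 letters TGANTCA (6.34% of all promoters), the hypoxia response core ACGTG (16.6%), the STAT letters TTCNNNGAA (7.67%) or the TATA box letters TATAAA (12.9%). A match or its absence describes these letters in these windows only. Osm and Lif were not in the table. They are neighbours on GRCr8, with 0 protein-coding genes between them.

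The library set, rather than the co-culture, went with the wide differences in these genes. In 8 of the 10 factors the 6 libraries of one set lay wholly above the 6 of the other, where 54.9% of all tested genes did so. Hgf, Igf1 and Pdgfc were higher in the higher-numbered set (3 of 10, against 26.9% of all tested genes), and Pdgfa, Hbegf, Vegfa, Osm and Lif were higher in the lower-numbered set (5 of 10, against 28.0%). The sets lay over 1 log2 unit apart for 4 factors (19.7% of all tested genes), over 2 units for 3 (7.08%) and over 4 units for 2 (1.13%). Pdgfc, Hbegf and Lif were the 3 factors over 2 units apart. The median difference, higher-numbered minus lower-numbered set, was -0.45 log2 units over the 10 factors and -0.00 over all tested genes.

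**Figure D1:**
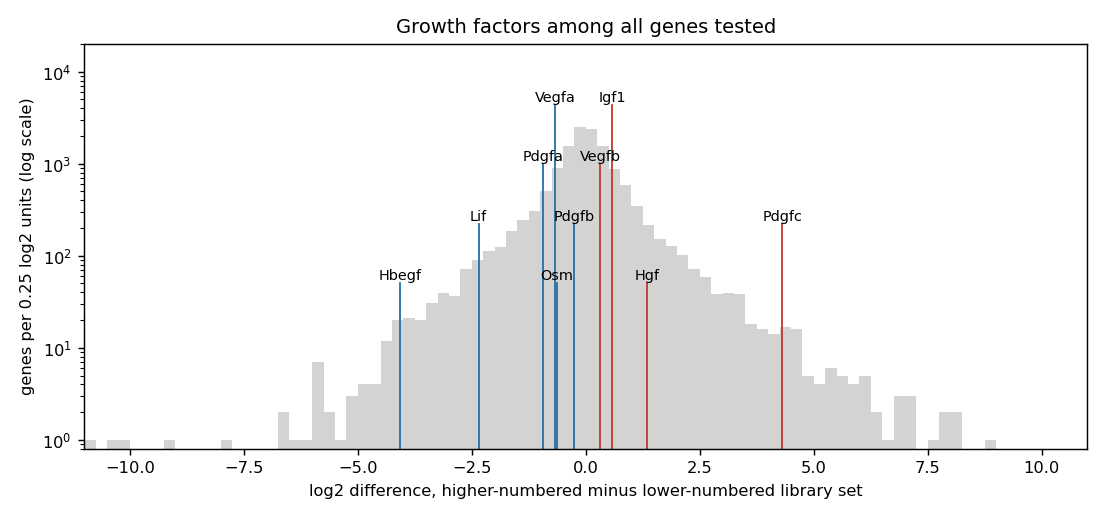
Distribution over all tested genes of the fitted log2 difference between the higher-numbered and the lower-numbered library set (x axis), as number of genes (log y axis), with each factor marked at its own value. Pdgfc at 4.31 and Hbegf at -4.08 lie far from 0 on opposite sides, where 1.13% of tested genes are over 4 units apart.

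Hgf and Igf1, the factors acting on parenchymal growth and survival, were both at higher levels in the higher-numbered set. In that set Hgf was at 66.3 and 69.1 CPM with hAEC, 52.9 and 61.1 with hAMSC and 58.1 and 60.7 with vehicle. In the lower-numbered set it was at 27.7 and 25.9 CPM with hAEC, 23.7 and 23.95 with hAMSC and 23.7 and 20.8 with vehicle. The sets did not overlap, and Hgf averaged 61.4 ± 5.79 CPM in the higher-numbered set and 24.3 ± 2.35 CPM in the lower-numbered set (SD, n = 6 each), a 2.53-fold difference. Igf1, made in liver mostly by hepatocytes but also by macrophages, was at 116 and 124 CPM with hAEC, 94.2 and 121 with hAMSC and 106 and 110.5 with vehicle in the higher-numbered set. Its level in the lower-numbered set was 74.4 and 73.8 CPM with hAEC, 76.4 and 87.2 with hAMSC and 68.3 and 69.1 with vehicle. The Igf1 sets lay 0.58 log2 units apart with no overlap, though hAMSC 15 at 94.2 CPM came close to hAMSC 8 at 87.2 CPM.

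The 3 PDGF chains did not move together between the sets. Pdgfc, a chain secreted in latent form and freed by proteolysis, was at 19.3 and 16.7 CPM with hAEC, 12.7 and 15.7 with hAMSC and 14.998 and 14.4 with vehicle in the higher-numbered set. In the lower-numbered set Pdgfc was at 0.809 and 1.04 CPM with hAEC, 0.745 and 0.8302 with hAMSC and 0.794 and 0.485 with vehicle, and the counts behind these levels were 24 and 33 with hAEC, 26 and 27 with hAMSC and 22 and 15 with vehicle. All 6 libraries of the higher-numbered set lay above those of the other, and the means differed 19.97-fold. Pdgfa, which binds Pdgfra, ran the other way, at 10.8 and 10.5 CPM with hAEC, 12.2 and 10.9 with hAMSC and 11.4 and 10.8 with vehicle in the higher-numbered set. The lower-numbered set held Pdgfa at 20.2 and 25.8 CPM with hAEC, 17.96 and 21.9 with hAMSC and 19.2 and 22.1 with vehicle, and the sets did not overlap, with a log2 difference (higher-numbered minus lower-numbered) of -0.93. Pdgfb, whose dimer binds both receptors, was at 33.02 and 35.9 CPM with hAEC, 32.7 and 32.3 with hAMSC and 34.4 and 34.1 with vehicle in the higher-numbered set. In the lower-numbered set Pdgfb was at 43.4 and 39.03 CPM with hAEC, 35.4 and 37.8 with hAMSC and 42.7 and 43.9 with vehicle. The Pdgfb sets overlapped, with a log2 difference of -0.26.

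**Figure D2:**
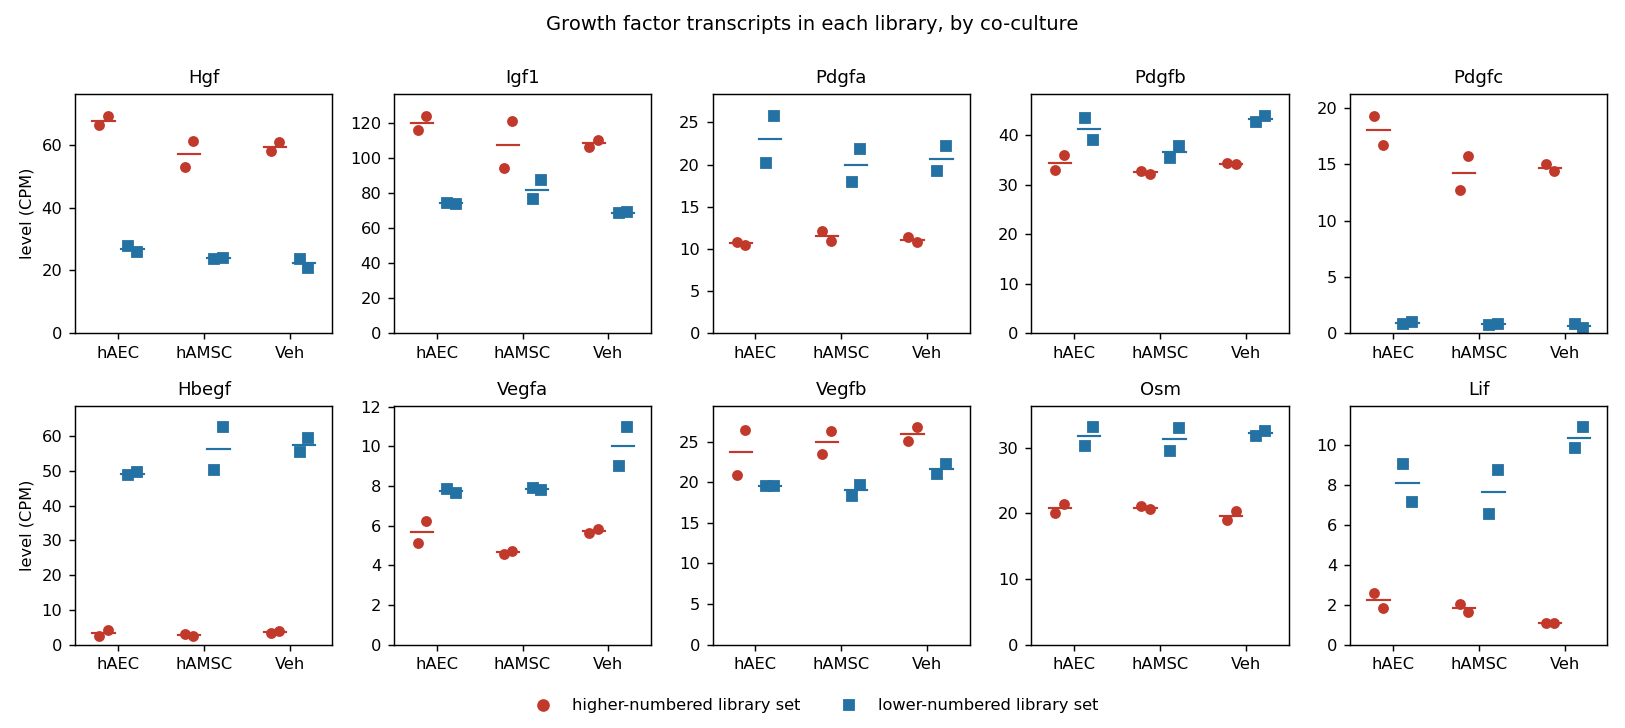
CPM of each factor in every library, 1 panel per factor, with hAEC left of hAMSC and vehicle; marker shapes give the library set and short bars the mean of the 2 libraries. Axes are linear, start at 0 and differ between panels, so levels are read within a gene. For Pdgfc, Hbegf and Lif the gap between the sets is far wider than the spread of the 3 groups within a set.

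Hbegf, which is anchored in the membrane until shed by metalloproteases, had the opposite pattern to Pdgfc. Hbegf was at 2.41 and 4.04 CPM with hAEC, 3.099 and 2.53 with hAMSC and 3.18 and 3.91 with vehicle in the higher-numbered set. The lower-numbered set held 48.8 and 49.6 CPM with hAEC, 50.2 and 62.5 with hAMSC and 55.4 and 59.5 with vehicle. The highest library of the higher-numbered set, hAEC 12 at 4.04 CPM, stayed far below the lowest of the lower-numbered set, hAEC 3 at 48.8 CPM, and the set means differed 17.01-fold. Hbegf and Pdgfc were the farthest apart of all pairs among the 10 factors, with a root-mean-square difference of 3.99 log2 units between their centred profiles over the 12 libraries.

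Vegfa and Vegfb, the angiogenic factors, lay closer together between the sets and in opposite directions. Vegfa, the main mitogen of endothelium, was at 5.12 and 6.23 CPM with hAEC, 4.58 and 4.73 with hAMSC and 5.61 and 5.81 with vehicle in the higher-numbered set. In the lower-numbered set it was at 7.85 and 7.66 CPM with hAEC, 7.88 and 7.81 with hAMSC and 9.02 and 10.96 with vehicle. The sets of Vegfa did not overlap, with a log2 difference of -0.67. Vegfb, a ligand of Flt1 that does not bind Kdr, was at 20.9 and 26.5 CPM with hAEC, 23.5 and 26.4 with hAMSC and 25.1 and 26.8 with vehicle in the higher-numbered set. The lower-numbered set held Vegfb at 19.6 and 19.6 CPM with hAEC, 18.3 and 19.7 with hAMSC and 20.97 and 22.3 with vehicle, and the sets overlapped with a difference of 0.31 log2 units.

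Both cytokines of the interleukin 6 family were higher in the lower-numbered set. Osm, which is made by macrophages and other leukocytes, was at 20.1 and 21.5 CPM with hAEC, 21.1 and 20.6 with hAMSC and 18.98 and 20.4 with vehicle in the higher-numbered set. Its lower-numbered set was at 30.4 and 33.2 CPM with hAEC, 29.5 and 33.1 with hAMSC and 31.9 and 32.6 with vehicle, 1.55-fold higher, with no overlap. Lif was at 2.58 and 1.84 CPM with hAEC, 2.02 and 1.65 with hAMSC and 1.06 and 1.096 with vehicle in the higher-numbered set. Its level in the lower-numbered set was 9.03 and 7.12 CPM with hAEC, 6.56 and 8.76 with hAMSC and 9.85 and 10.9 with vehicle, and the sets were 5.097-fold apart with no overlap.

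Adding hAEC moved none of the 10 factors past the threshold. hAEC against vehicle called 0 of the 10 factors and 0.0% of all tested genes by edgeR's quasi-likelihood test at an adjusted p under 0.05, while 2 factors and 5.61% of genes had an unadjusted p under 0.05. DESeq2 and limma voom called 0 of the 10 factors too. The factor with the smallest p was Hgf, with a log2 difference of 0.23 ± 0.06 (SE; 95% interval 0.10 to 0.35; edgeR adjusted p = 0.86). Both hAEC libraries of each set lay above both vehicle libraries for Hgf, Igf1 and Pdgfc, 3 of 10 factors, against 4.39% of all tested genes. Pdgfc was nearly tied in the lower-numbered set, with hAEC 3 at 0.809 CPM (24 counts) and vehicle 17 at 0.794 CPM (22 counts). For Pdgfc the difference was 0.35 ± 0.13 log2 units (edgeR adjusted p = 0.861), and for Igf1 it was 0.13 ± 0.08 (adjusted p = 0.92). No factor lay below vehicle in both sets, where 3.6% of genes did. Values of the other factors ranged between -0.19, for both Vegfa and Hbegf, and 0.15 for Lif. For Pdgfb the 95% interval of the ratio of hAEC to vehicle was 0.905 to 1.06, and for Osm it was 0.935 to 1.11.

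hAMSC, with vehicle as the comparison, also called 0 of the 10 factors, against 0.236% of all tested genes, by edgeR at an adjusted p under 0.05. Unadjusted p was under 0.05 for 2 factors and for 9.68% of genes, and DESeq2 and limma voom called 0 of the 10 factors. Those 2 factors were Vegfa, with a log2 difference of -0.32 ± 0.11 (95% interval -0.55 to -0.10; edgeR adjusted p = 0.304), and Pdgfb, with -0.16 ± 0.05 (95% interval -0.27 to -0.05; adjusted p = 0.312). Both hAMSC libraries lay below both vehicle libraries in each set for Pdgfb and Vegfa, 2 of 10 factors, against 4.47% of all tested genes. No factor lay above vehicle in both sets, against 3.94% of genes. Igf1 differed by 0.12 ± 0.08 log2 units (edgeR adjusted p = 0.68), and passed only when hAMSC 15, its lowest library of the higher-numbered set, was left out (0.22, adjusted p = 0.0423). Hgf stood at 0.02 (ratio 0.929 to 1.101, 95% interval) and Osm at 0.02 (ratio 0.9296 to 1.104).

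**Figure D3:**
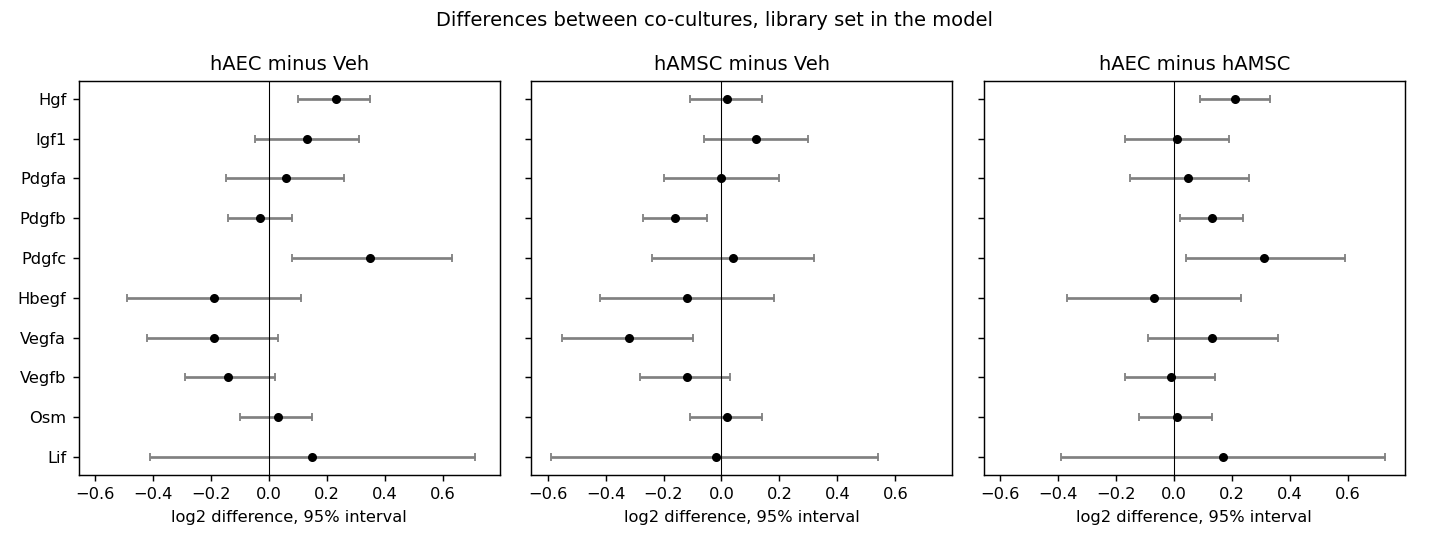
Fitted log2 differences of the 10 factors with 95% intervals from the edgeR model with the library set as a term, in the 3 comparisons (hAEC against vehicle, hAMSC against vehicle, and the 2 co-cultures). No factor passed an adjusted p of 0.05. The widest intervals are those of Lif, -0.41 to 0.71 for hAEC against vehicle.

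The 2 amniotic cell types, set against each other, called 0 of the 10 factors, against 0.0222% of tested genes, by edgeR at an adjusted p under 0.05. An unadjusted p under 0.05 was found for 3 factors and 6.37% of genes, and DESeq2 and limma voom called 0 factors. Hgf was 0.21 ± 0.06 log2 units higher with hAEC than with hAMSC (95% interval 0.09 to 0.33; edgeR adjusted p = 0.306). Pdgfb differed by 0.13 ± 0.05 (adjusted p = 0.694) and Pdgfc by 0.31 ± 0.13 (adjusted p = 0.708). For Hgf and Pdgfb both hAEC libraries lay above both hAMSC libraries in each set, 2 of 10 factors, against 3.69% of all tested genes, and for 0 factors both lay below, against 3.84%. The values of the 3 comparisons share libraries, so they are not independent of each other.

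Lif was the 1 factor whose groups were ordered oppositely in the 2 sets for both co-cultures. In the higher-numbered set, Lif counts were 79 and 58 with hAEC, 60 and 45 with hAMSC and 30 and 30 with vehicle. In the lower-numbered set they were 268 and 226 with hAEC, 229 and 285 with hAMSC and 273 and 337 with vehicle. Scaled to library size, as CPM, the Lif levels of co-culture libraries all lay above vehicle in the higher-numbered set and all below vehicle in the lower-numbered set, for 1 of 10 factors in each co-culture; of all tested genes 3.3% did so for hAEC and 4.11% for hAMSC. Fitted in the higher-numbered set alone, the difference was 1.03 ± 0.31 log2 units for hAEC (edgeR adjusted p = 0.843) and 0.77 ± 0.31 for hAMSC (adjusted p = 0.558). In the lower-numbered set alone, it was -0.36 ± 0.16 for hAEC (adjusted p = 0.632) and -0.43 ± 0.16 for hAMSC (adjusted p = 0.259). The difference between the 2 sets in the hAEC effect was 1.39 (95% interval 0.74 to 2.05; edgeR adjusted p = 0.351), and in the hAMSC effect 1.21 (95% interval 0.54 to 1.87; adjusted p = 0.147). Neither passed the threshold, and both use the same vehicle libraries. These tests called 0 of the 10 factors by edgeR and by DESeq2, against 0.0% of genes for hAEC and 0.199% for hAMSC by edgeR. Lif was the 1 factor with an unadjusted p under 0.05, as were 731 genes for hAEC and 1358 for hAMSC among all 13539.

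**Figure D4:**
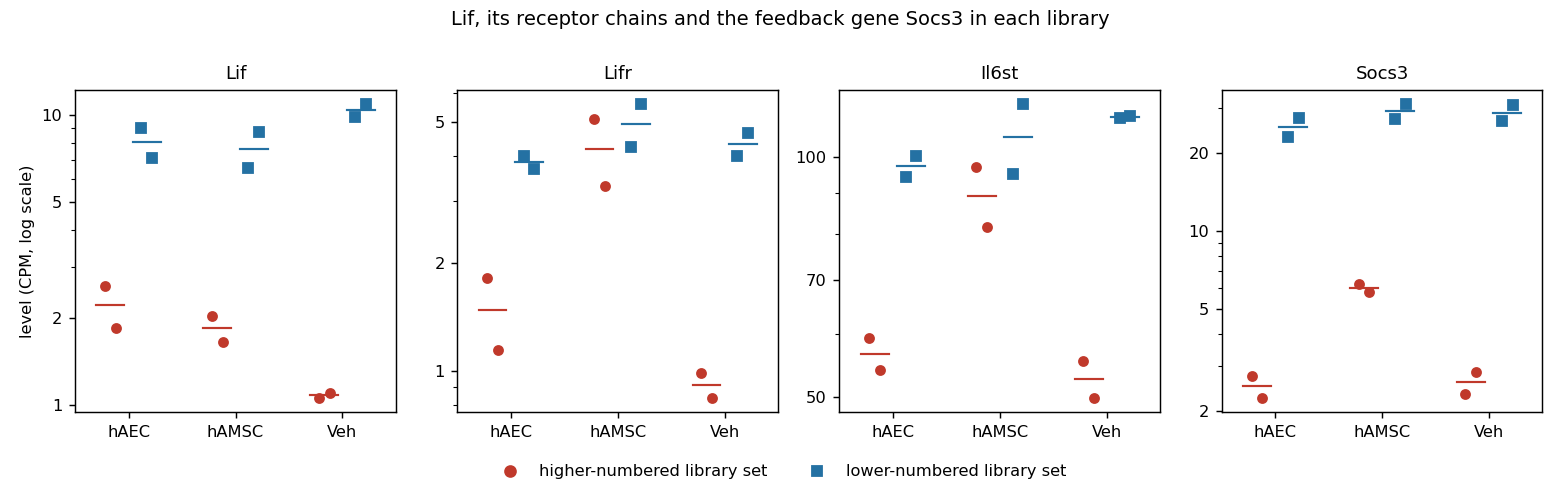
CPM on a log10 scale of Lif, its receptor chains Lifr and Il6st and the feedback gene Socs3 in every library, hAEC left of hAMSC and vehicle, with the library set as marker shape and short bars at the mean of 2 libraries; axes differ between panels. The hAMSC libraries of the higher-numbered set are above the vehicle libraries of that set for all 4 genes. For Lif and Lifr the hAEC libraries of that set are above its vehicle libraries too.

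The receptor for Lif and a feedback gene of gp130 signalling, Socs3, were among the listed genes that changed with hAMSC in the higher-numbered set. Lifr was at 1.83 and 1.15 CPM with hAEC, 5.09 and 3.299 with hAMSC and 0.988 and 0.8402 with vehicle in that set, and at 4.01 and 3.69 CPM with hAEC, 4.24 and 5.596 with hAMSC and 4.01 and 4.66 with vehicle in the lower-numbered set. Fitted within the higher-numbered set alone, Lifr was 2.19 ± 0.33 log2 units higher with hAMSC (edgeR adjusted p = 0.0085), against 0.19 ± 0.19 in the other (adjusted p = 0.714). The difference between the sets was 2.01 ± 0.38 (adjusted p = 0.0454), and it passed in 4 of 12 fits with 1 library left out (without hAEC 11, hAEC 12, hAMSC 8 or hAMSC 16), with adjusted p between 0.0184 and 0.231 over the 12. Socs3 was at 2.74 and 2.26 CPM with hAEC, 6.23 and 5.79 with hAMSC and 2.33 and 2.85 with vehicle in the higher-numbered set, and at 23.2 and 27.5 CPM with hAEC, 27.1 and 30.99 with hAMSC and 26.7 and 30.7 with vehicle in the lower-numbered set. Its hAMSC effect differed between the sets by 1.2 ± 0.19 (edgeR adjusted p = 0.0192), passing in 7 of 12 such fits and not without hAMSC 7, hAMSC 15, vehicle 18, vehicle 19 or vehicle 20 (adjusted p up to 0.109). With limma voom neither passed (adjusted p = 0.199 for Lifr and 0.226 for Socs3). Il6st, the shared gp130 chain, was at 59.3 and 53.9 CPM with hAEC, 97.2 and 81.6 with hAMSC and 55.5 and 49.9 with vehicle in the higher-numbered set, and at 94.4 and 100.3 CPM with hAEC, 95.3 and 116 with hAMSC and 112 and 112 with vehicle in the lower-numbered set, with a difference between sets of 0.85 that did not pass by edgeR (adjusted p = 0.0567) and passed by DESeq2 (adjusted p = 3.61e-06). In the higher-numbered set alone Il6st was 0.76 ± 0.09 log2 units higher with hAMSC (edgeR adjusted p = 0.00475), and in the other the difference was -0.08 ± 0.09 (adjusted p = 0.773). Osmr, the receptor chain for Osm, was at 3.03 and 2.45 CPM with hAEC, 5.32 and 5.42 with hAMSC and 3.32 and 2.59 with vehicle in the higher-numbered set, and at 7.95 and 7.91 CPM with hAEC, 7.71 and 10.2 with hAMSC and 7.47 and 8.92 with vehicle in the lower-numbered set. In the higher-numbered set the endothelial markers summed to 469 to 540.0 CPM with hAMSC and 399 to 411 CPM with vehicle, and the stellate markers to 31.4 to 31.5 CPM with hAMSC and 28.8 to 32.3 CPM with vehicle. Within the higher-numbered set alone, hAMSC against vehicle also passed by edgeR for Kdr (0.88, adjusted p = 0.0085) and Epas1 (0.86, adjusted p = 0.00551). So did the proteases Pcsk5 (2.25, adjusted p = 0.00986) and Adam8 (0.65, adjusted p = 0.00813). For the difference between sets in the hAMSC effect, 10 of 20 tested receptors had an unadjusted edgeR p under 0.05, against 1358 of all 13539 genes. Among these receptors the difference was negative for Met (-0.62) and Cd44 (-0.24) and positive for the others. The part of the endothelial and stellate markers in the Lifr, Il6st, Socs3 and Kdr differences was not tested.

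Receptors and co-receptors of the factors, 20 of 22 listed genes tested, gave 0 calls by edgeR in any of the 3 comparisons of groups. An unadjusted p under 0.05 was found for 1 with hAEC and 4 with hAMSC against vehicle and 5 between the co-cultures (5.61%, 9.68% and 6.37% of all tested genes). By DESeq2, Kdr, the signalling receptor of Vegfa, passed at 0.52 ± 0.14 log2 units with hAMSC against vehicle (adjusted p = 0.0209) and at -0.61 ± 0.14 for hAEC against hAMSC (adjusted p = 0.00506). Fitted by set, Kdr differed between hAMSC and vehicle by 0.88 ± 0.13 in the higher-numbered set (edgeR adjusted p = 0.0085). In the lower-numbered set it differed by 0.18 ± 0.15 (edgeR adjusted p = 0.673). With hAMSC 17 of the 20 were above 0, with a median of 0.10 log2 units, and with hAEC 8 were, with a median of -0.07. All tested genes had a median of -0.00 in both, with 48.5% above 0 for hAEC and 48.9% for hAMSC. Between the sets, 2 receptors were wholly higher in the higher-numbered set and 9 wholly higher in the lower-numbered set, against 26.9% and 28.0% of all tested genes. Met, the receptor of Hgf, was at 2.64 to 4.09 CPM in the higher-numbered set and 43.4 to 56.1 CPM in the lower-numbered set, the opposite order to Hgf. Erbb3, a receptor that pairs with Erbb2, was at 28.7 to 36.6 CPM in the higher-numbered and 9.35 to 13.3 CPM in the lower-numbered set. Pdgfra, a receptor for all 3 PDGF chains, was at 0.202 to 0.7697 CPM in the higher-numbered and 1.04 to 1.29 CPM in the lower-numbered set. Igf1r and Pdgfrb had overlapping sets, 0.09 and 0.35 log2 units apart, and Erbb4 had 0 counts in every library. The receptors of smallest p in each co-culture did not pass: Cd9, a co-receptor of Hbegf, at 0.09 with hAEC (edgeR adjusted p = 0.881) and Igf2r, which clears Igf2, at 0.13 with hAMSC (adjusted p = 0.278).

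**Figure D5:**
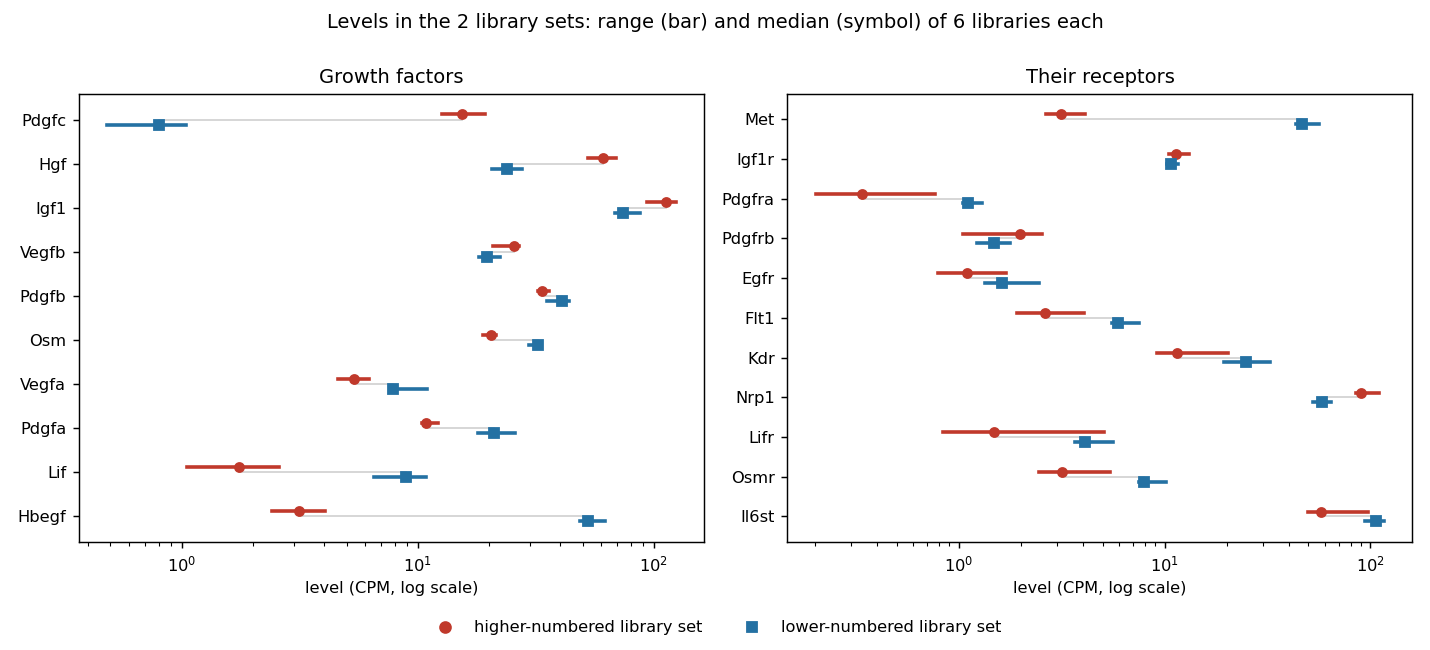
Lowest to highest CPM (log10 axis), with the median, of the 10 factors (left) and of receptors that bind them (right) in the higher-numbered (above) and the lower-numbered (below) library set, n = 6 libraries each. Hgf is higher and its receptor Met lower in the higher-numbered set. Levels are not scaled to transcript length, so they are compared between sets within a gene.

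Proteases that release or activate the factors differed between the sets in both directions. By edgeR 0 of 16 tested proteases passed in the comparisons of groups, with an unadjusted p under 0.05 for 2 with hAEC and 6 with hAMSC against vehicle and 4 between the co-cultures (5.61%, 9.68% and 6.37% of all tested genes). Above 0 were 8 with hAEC and 7 with hAMSC (48.5% and 48.9% of all tested genes), with medians of 0.00 and -0.03. Plau, the urokinase that can activate Hgf, was at 579 to 646 CPM in the higher-numbered set and 148 to 177 CPM in the lower-numbered set, and Pcsk6, a proprotein convertase, was 2.24 log2 units higher in the higher-numbered than in the lower-numbered set. Rhbdf2, which brings the Hbegf sheddase Adam17 to the cell surface, was at 72.4 to 88.7 CPM in the higher-numbered and 220.5 to 250.2 CPM in the lower-numbered set, the same order as Hbegf. In all, 6 proteases lay wholly higher in the higher-numbered set and 3 in the lower-numbered set, against 26.9% and 28.0% of all tested genes. The proteases of smallest p, Adam10 with hAEC (0.13, edgeR adjusted p = 0.881) and Furin with hAMSC (-0.18, adjusted p = 0.147), did not pass by edgeR, and Furin passed by DESeq2 (adjusted p = 0.0236). Between hAEC and hAMSC, DESeq2 also called Furin (0.20, adjusted p = 0.0191) and the convertase Pcsk5 (-1.52, adjusted p = 0.00269). Pcsk5 was low, at 0.604 to 4.28 CPM in the higher-numbered set and 1.64 to 3.44 CPM in the lower-numbered set. Its difference between hAEC and hAMSC was -2.18 ± 0.34 in the higher-numbered set alone (edgeR adjusted p = 0.014). In the lower-numbered set alone it was -0.77 ± 0.27 (edgeR adjusted p = 0.841).

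Among binding proteins and inhibitors, 0 of 13 tested genes passed by edgeR and by DESeq2 in the comparisons of groups. An unadjusted p under 0.05 was found for 0 with hAEC and 1 with hAMSC (5.61% and 9.68% of all tested genes). Medians were -0.04 for hAEC and 0.07 for hAMSC. Igfbp3, a carrier of Igf1, lay 0.98 log2 units higher in the higher-numbered set, and Grb10, an adaptor that dampens insulin and Igf1 receptor signalling, had a log2 difference of -1.59. The genes of smallest p, Grb10 with hAEC (-0.32, edgeR adjusted p = 0.881) and Plaur with hAMSC (-0.15, adjusted p = 0.342), did not pass. Other ligands of the same families had 9 of 20 listed genes tested, and 0 passed by edgeR or DESeq2. At an unadjusted p under 0.05 were 1 with hAEC and 2 with hAMSC, against 5.61% and 9.68% of all tested genes. Between the sets the log2 difference of Ereg, an Egfr ligand, was -2.45, that of Pgf, a Flt1 ligand, -2.12 and that of Vegfc, a lymphangiogenic factor, 1.74. The ligands of smallest p were Pgf with hAEC (-0.44, edgeR adjusted p = 0.881) and Cntf with hAMSC (0.56, adjusted p = 0.379).

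Feedback and response genes of these pathways gave 0 calls by edgeR among 23 tested genes in the comparisons of groups. An unadjusted p under 0.05 was found for 3 with hAEC and 4 with hAMSC (5.61% and 9.68% of all tested genes). There were 10 above 0 with hAEC and 18 with hAMSC (medians -0.02 and 0.08), against 48.5% and 48.9% of all tested genes. The smallest p were those of Vhl with hAEC (0.11, edgeR adjusted p = 0.881) and Hif1a, a regulator of Vegfa under hypoxia, with hAMSC (0.18, adjusted p = 0.151), and Hif1a passed by DESeq2 (adjusted p = 0.0321). Fitted by set, Hif1a differed between hAMSC and vehicle by 0.29 ± 0.05 in the lower-numbered set (edgeR adjusted p = 0.0324). In the higher-numbered set Hif1a differed by 0.06 ± 0.06 (edgeR adjusted p = 0.91). Between the sets 4 lay wholly higher in the higher-numbered set and 13 in the lower-numbered set, against 26.9% and 28.0% of all tested genes. Cish and Socs3, inhibitors of cytokine receptor signalling, and Spry4, an inhibitor of receptor tyrosine kinase signalling, had log2 differences of -4.01, -2.98 and -2.49 in the order named.

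The genes closest in pattern to each factor were found by the root-mean-square difference between centred log2 profiles, over 12 libraries among genes averaging 5 CPM or more; the libraries share the set structure, and so does the likeness. For Hgf these were Akr1e2 (0.0783) and Tmem50b (0.0861), and for Igf1 they were Smarcad1 (0.06) and Rnft1 (0.0737). The PDGF chains were nearest to Nle1 (0.0987) and Naa25 (0.104) for Pdgfa, Nmt2 (0.0599) and Fxr2 (0.0605) for Pdgfb and Kcna2 (0.224) and Filip1 (0.233) for Pdgfc. Hbegf lay nearest to Cxcl2 (0.185) and Rassf4 (0.188), the first of these being a chemokine that draws neutrophils. Vegfa was nearest to Sesn2 (0.111) and Nfkbid (0.118), and Vegfb to Armc5 (0.0672) and Mfsd10 (0.0689). Osm had Tubb5 (0.0403) and Smurf1 (0.0436) and Lif had Uaca (0.218) and Plxna2 (0.237). Within the 10 factors the nearest pairs were Vegfa and Osm (0.171) and Pdgfa and Osm (0.178).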

How the data were processed

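Polyadenylated RNA was measured in 12 libraries; the deposited files hold expected counts per gene, as RSEM gives them, and the submitters' processing notes name FastQC, Trim Galore, STAR, RSEM and limma with builds rn6 and Rnor_6.0, with versions and roles not given in the sources used here. Per the labels' protocols the kits were RNAqueous-Micro and TruSeq Stranded mRNA. RSEM shares reads that fit several genes among them, which adds an uncertainty that the tests do not hold. Of the deposited values 90.1% were whole, 11932 genes were at 0 in all libraries, and expected counts were rounded. Gene symbols are those in the files.

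edgeR 4.0.16 (R 4.3.3) was used with filterByExpr, TMM scaling (factors 0.973 to 1.03), a robust quasi-likelihood fit over all 12 libraries with terms for group and library set, and two-sided tests with Benjamini-Hochberg adjustment over 13539 genes at a threshold of 0.05. A model with 6 group and set means tested whether an effect differed between the sets. CPM are TMM-scaled and 95% intervals come from the fit. The biological coefficient of variation was 9.91% with the set term and 38.9% with group alone. Nearest profiles used log2 of CPM plus 0.25. The edgeR fit with terms for group and library set was tested on simulated counts in which only hAEC changed genes. The model with 6 group and set means and the alternative settings were not part of that simulation.

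The factors, the lists and the marker genes were chosen with earlier results of these data known. Named list genes are those past the threshold, the smallest p in each co-culture, and up to 3 of the largest differences between the sets. Of each factor, 2 nearest genes are named. A gene that the rule names is not reported here. Alternatives were RLE, upper quartile and library-size scaling, DESeq2 1.42.0, no filter on low counts, a filter at an average of 5 CPM, limma 3.58.1 voom, a fit that was not robust, the 2 groups alone, the group without the set, each set alone, and leaving out each library. Library precision is limited by depths of 27382724 to 34922211 counts.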

Additional observations from a re-analysis of the deposited data

Results flagged for a closer look

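The difference of Lif between co-culture and vehicle changed sign between the library sets. Under the interaction model the hAEC effect was 1.39 log2 units larger in the higher-numbered than in the lower-numbered set (95% interval 0.74 to 2.05; edgeR adjusted p = 0.351), and the hAMSC effect was 1.21 units larger (95% interval 0.54 to 1.87; edgeR adjusted p = 0.147). Both were picked out because every co-culture library was above every vehicle library in one set and below every one in the other, and neither passed over all genes. They rest on the same 4 vehicle libraries, of which the 2 in the higher-numbered set had 30 counts each. Each group holds 2 libraries of each set, so a check for 1 library apart from the other 3 of its group could hardly find one and is not reported.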

How the results depend on the processing

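No factor was called in the comparisons of groups under any setting except Igf1 for hAMSC against vehicle without hAMSC 15, so the factors called ran from 0 to 1 over fits that left out 1 library for that comparison; the difference of the hAMSC effect between sets gave 0 to 1 (Igf1, -0.45, adjusted p = 0.0469 without hAMSC 16). With no filter Lif was called in both tests of a difference between sets, 1 factor each (adjusted p = 0.00019 for hAEC and 0.00282 for hAMSC), and the cause was not tested. No result changed direction past the threshold.

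The counts of genes called moved more. hAEC against vehicle called 0 genes, and 2 with DESeq2, 10 with the 2 groups alone, 6 in the higher-numbered set alone and 1 in the lower-numbered set alone. hAMSC against vehicle called 32, and 52 with no filter, 155 with DESeq2, 12 with a fit that was not robust, 9 with the 2 groups alone, 0 with group alone, 94 in the higher-numbered set alone and 86 in the lower-numbered set alone. hAEC against hAMSC called 3, and 26 with no filter, 80 with DESeq2, 0 when not robust, 0 with group alone, 58 in the higher-numbered set alone and 1 in the lower-numbered set alone. The difference of the hAEC effect between the sets called 0, and 309 with no filter and 23 with DESeq2. That of the hAMSC effect called 27, and 533 with no filter, 113 with DESeq2, 4 with limma voom and 17 when not robust.

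Leaving out 1 library at a time gave 0 genes for hAEC against vehicle, 8 to 153 for hAMSC against vehicle, 0 to 50 for hAEC against hAMSC, 0 to 5 for the hAEC difference and 0 to 158 for the hAMSC difference. The cause of these moves was not tested. No paired analysis was possible because the labels do not name the rat or culture behind a library. Pdgfc in the lower-numbered set and Lif in the higher-numbered set rest on 15 to 79 counts. Fitted in those sets alone, hAEC against vehicle had an SE of 0.42 for Pdgfc and 0.31 for Lif. In the other set the SE was 0.12 for Pdgfc and 0.16 for Lif. The part of the low counts in these spreads was not tested.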
